A study of Homo sapiens with 8 samples.

Results

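The kallikrein-related peptidases KLK5 to KLK14 were described in HCT116 cells, an established human colorectal cancer line, before and after treatment with the DNA demethylating agent 5-aza-dC and with or without knockdown of TET1. The 10 members were found by gene name among the non-control probes of a whole-genome expression array. They were carried by 13 of its 50599 distinct probes and made up 10 of its 36337 gene names. KLK13 had 3 probes, KLK6 had 2, KLK11 had 1 probe printed on 10 spots, and the other 7 members had 1 spot each.

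The series held 8 arrays of 4 stable clones, with 1 array for each clone and state. The control clones CONT1 and CONT2 carried a negative control microRNA in the plasmid pcDNA6.2-GW/EmGFP-miR, while the TET1 knockdown clones TET1-KD1 and TET1-KD2 each carried a vector with an artificial microRNA against TET1, a methylcytosine dioxygenase. The study made its knockdown clones with 2 different such microRNAs, so between TET1-KD1 and TET1-KD2 clone and microRNA cannot be told apart. All 4 clones had been selected in G418. Each clone was profiled untreated and after 72 h in 1 µM 5-aza-dC, so that each of the 4 conditions held 2 samples, CONT untreated, CONT with 5-aza-dC, TET1-KD untreated and TET1-KD with 5-aza-dC. Treatment was read from the sample titles, since a second treatment label followed the kind of clone. The samples of a condition were different clones, and p-values measure the spread between clones of 1 cell line.

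The kallikrein-related peptidases are secreted trypsin-like and chymotrypsin-like serine proteases, encoded side by side with the classical tissue kallikreins in a single cluster on the long arm of chromosome 19. They are made as inactive zymogens, are cut into active form by trypsin-like proteases including each other, and are held in check by serpins and by Kazal-type inhibitors such as LEKTI, the product of SPINK5. In skin KLK5, KLK7 and KLK14 are known for cleaving the desmosomal proteins that hold the outermost cells together, and several members are studied as markers of carcinomas. 5-aza-dC is built into DNA, where it traps DNA methyltransferases, and methylation is then lost at CG pairs as cells divide.

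Because 5-aza-dC acts on methylation at CG pairs, the promoters of the 3 members that rose are shown with a promoter of a bright member that did not pass the test. RefSeq promoter windows (GRCh38.p14, minus strand, 250 bases before to 50 bases after a transcription start) were found for 9 of the 10 members. Letters run 5′ to 3′, and capitals mark each CG pair. KLK12 at chr19:51034953-51035252, KLK11 at chr19:51026567-51026866 (first) and chr19:51027597-51027896 (second), KLK5 at chr19:50952989-50953288 and KLK6 at chr19:50969542-50969841 read as follows.
KLK12: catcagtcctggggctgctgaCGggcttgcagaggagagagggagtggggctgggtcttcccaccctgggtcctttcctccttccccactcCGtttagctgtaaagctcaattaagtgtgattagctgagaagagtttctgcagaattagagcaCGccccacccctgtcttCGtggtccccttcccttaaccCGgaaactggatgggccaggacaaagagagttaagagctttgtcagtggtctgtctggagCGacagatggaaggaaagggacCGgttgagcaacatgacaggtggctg
KLK11 first: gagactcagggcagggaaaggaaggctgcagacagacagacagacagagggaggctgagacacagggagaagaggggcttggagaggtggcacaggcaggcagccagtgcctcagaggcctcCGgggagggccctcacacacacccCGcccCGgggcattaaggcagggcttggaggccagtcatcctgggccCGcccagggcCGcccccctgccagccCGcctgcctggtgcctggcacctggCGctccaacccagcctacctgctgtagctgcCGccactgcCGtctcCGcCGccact
KLK11 second: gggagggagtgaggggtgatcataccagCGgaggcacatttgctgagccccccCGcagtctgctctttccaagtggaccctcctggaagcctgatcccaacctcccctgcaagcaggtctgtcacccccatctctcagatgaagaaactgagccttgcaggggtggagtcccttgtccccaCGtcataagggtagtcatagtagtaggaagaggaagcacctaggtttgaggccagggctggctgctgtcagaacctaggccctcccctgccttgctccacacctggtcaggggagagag
KLK5: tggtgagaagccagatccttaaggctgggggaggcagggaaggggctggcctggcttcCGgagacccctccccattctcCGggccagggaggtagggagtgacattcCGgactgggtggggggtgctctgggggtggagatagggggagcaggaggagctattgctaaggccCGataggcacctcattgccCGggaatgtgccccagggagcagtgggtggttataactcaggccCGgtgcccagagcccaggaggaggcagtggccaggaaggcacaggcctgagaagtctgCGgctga
KLK6: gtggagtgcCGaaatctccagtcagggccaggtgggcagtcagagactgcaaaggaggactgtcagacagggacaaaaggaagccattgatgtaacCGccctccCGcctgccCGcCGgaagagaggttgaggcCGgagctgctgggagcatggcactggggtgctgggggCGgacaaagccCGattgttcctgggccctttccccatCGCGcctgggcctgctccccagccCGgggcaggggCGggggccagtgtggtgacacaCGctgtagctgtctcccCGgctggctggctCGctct

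The KLK12 and KLK5 windows each held 7 CG pairs, a number reached by 63.2% of all 35116 promoter windows of this length. The KLK11 windows held 11 and 3 CG pairs, reached by 54.7% and 81.8% of all windows. The KLK6 window held 15, reached by 48.9%. Over all windows the median was 14 CG pairs and 96.0% held at least 1, so the windows of the members that rose were at or below the median. The other windows, of KLK7, KLK9, KLK10, KLK13 and KLK14, held between 2 and 23 CG pairs. These counts describe the reference sequence, and DNA methylation was not measured on these arrays.

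Signals are given as log2 of the processed intensity after each array was scaled to its 75th percentile. A probe entered the test if 1 or more of the 4 conditions had it above background in both clones, which held for 27287 probes. The lowest signal of any probe above background was between 3.98 and 4.61 on the 8 arrays. A member passed the test, and is said to have risen or fallen, at an adjusted p below 0.05 in a limma fit over all 8 arrays. Of the 10 members 6 had a tested probe, KLK5, KLK6, KLK7, KLK8, KLK11 and KLK12. The other 4 members, KLK9, KLK10, KLK13 and KLK14, were not tested.

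Both arrays of the treated control clones lay on the second of 2 slides, scanned 230 days after the first, while the other 6 arrays shared the first slide. The response of the control clones, the comparison of treated clones and the difference in response therefore cannot be told apart from slide, whereas the response of the knockdown clones and the untreated comparison lay within 1 slide. Before scaling, each of the 10 spike-in probes read lower on the second slide. The means ran from 7.91 against 6.90 for the widest gap to 2.35 against 2.33 for the narrowest. The 75th percentiles used for scaling were also lower there, at 393 and 473 against 546 to 619 on the first slide. Spike-in gaps after scaling were not computed. Colon epithelial markers were bright, with EPCAM, KRT8, KRT18, KRT19 and CDH1 above background on all 8 arrays and VIL1 not tested. Of these 5, by the brightest probe of each, 1 rose and 2 fell after treatment in the control clones and 0 passed in the knockdown clones. Over all tested gene names 20.4% rose and 22.0% fell in the control clones. A second KRT18 probe did not pass in the control clones (-0.03, limma adjusted p 0.921) but rose in the knockdown clones (0.77, adjusted p 0.0485). The other KRT8 probes did not pass in the control clones, at -0.34 and 0.31 (adjusted p 0.199 and 0.317). TET1 itself was read by 3 probes. Its brightest probe gave 9.70 and 9.74 in CONT1 and CONT2 and 8.65 and 9.41 in TET1-KD1 and TET1-KD2 without treatment, and the adjusted p from limma was 0.608. The other 2 probes were also lower in the knockdown clones without passing the test (adjusted p 0.377 and 0.582), and TET1-KD1 read lower than TET1-KD2 on all 3.

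**Figure D1:**
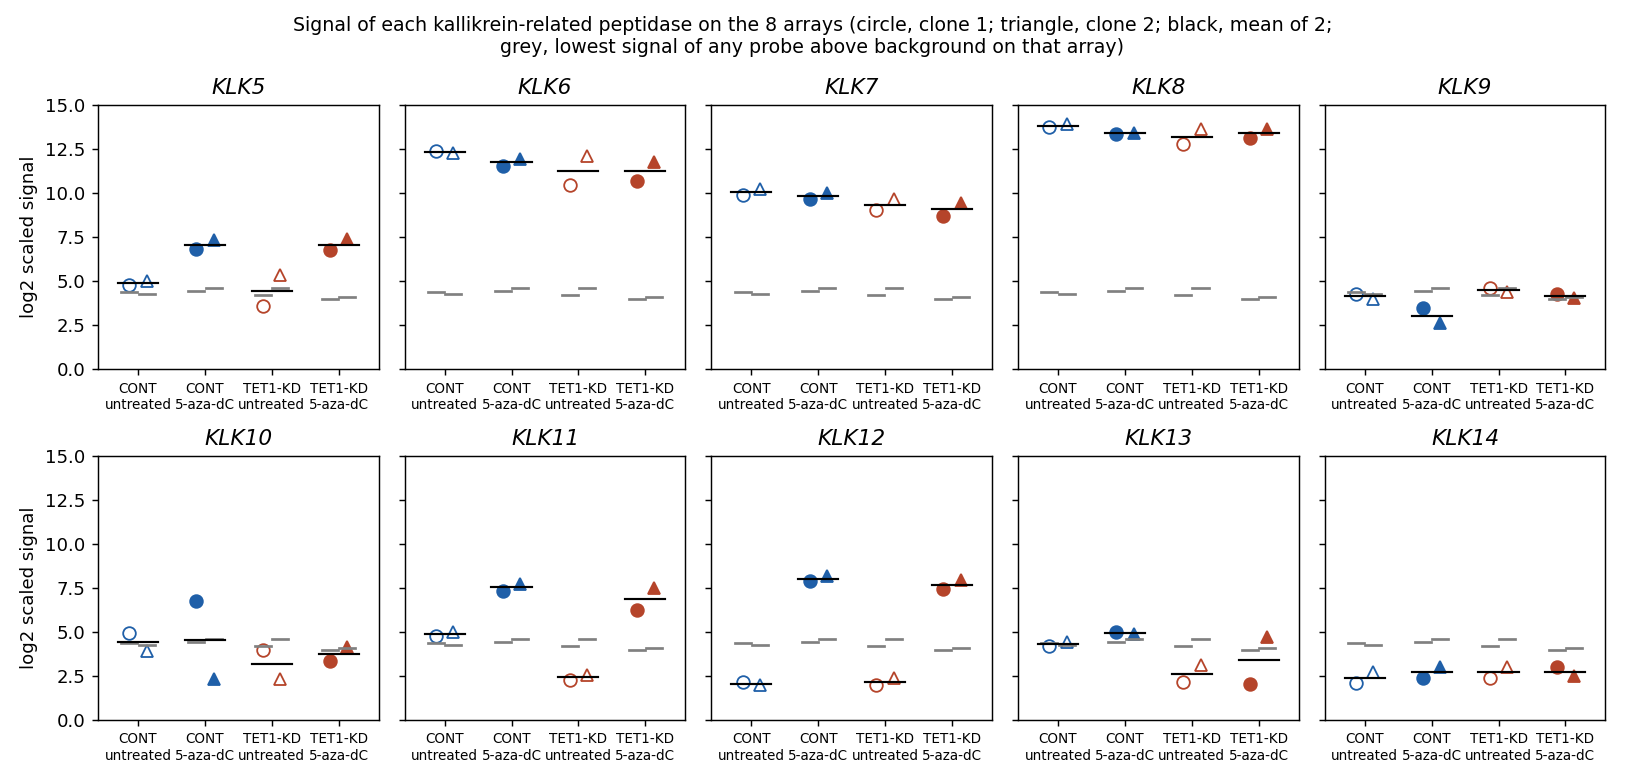
Log2 scaled signal (vertical axis) of the representing probe of each of the 10 members on the 8 arrays, by condition (horizontal axis). Circles are clone 1 and triangles clone 2, open before and filled after 5-aza-dC, black lines are means of 2 clones, and grey lines give the lowest signal of a probe above background on that array. KLK12 and KLK11 were higher on every treated array than on every untreated array, and KLK6, KLK7 and KLK8 stayed far above the grey lines throughout.

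KLK12, KLK11 and KLK5 rose after 5-aza-dC whether or not TET1 had been knocked down. In the control clones 3 of 6 tested members rose and 0 fell, where 20.4% of all tested gene names rose and 22.0% fell. Under knockdown 3 of 6 rose and 0 fell, where 9.32% of gene names rose and 2.89% fell. The median log2 change over the 6 tested members was 0.97 in the control and 1.41 in the knockdown clones, beside -0.05 and -0.06 over all 20554 tested gene names. These 6 exclude the members that stayed near background, so they do not stand for the whole family. KLK12 entered the test only through its treated arrays, since no untreated array had it above background. Its place among the 6 therefore depended on the same rise that is counted. The t-test that the study's methods name, run on the same values with Benjamini-Hochberg adjustment, called KLK11 and KLK12 but not KLK5 in the control clones and 0 of all probes in the knockdown clones. The changes are those of RNA from whole cultures, in which more expressing cells and more RNA per cell cannot be told apart.

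KLK12, a trypsin-like secreted protease, was the member that changed most. Its probe (hg19 chr19:51532360-51532419) read 2.14 and 1.95 in untreated CONT1 and CONT2, and 7.88 and 8.14 in the same clones after 5-aza-dC. In TET1-KD1 and TET1-KD2 it read 1.98 and 2.37 before and 7.42 and 7.92 after treatment. Thus the probe was above background on none of the 4 untreated arrays and on all 4 treated arrays, with no overlap in signal. The difference of means was 5.96 in log2 (SE 0.24) in the control clones and 5.50 (SE 0.24) in the knockdown clones, with limma adjusted p-values of 4.69e-05 and 8.01e-05. Since the untreated level was not measured above background, the change is better given as a bound, at least 13.0-fold higher in the control and at least 9.63-fold higher in the knockdown clones. The bound sets the treated mean against the lowest signal above background on the untreated arrays. The fitted difference depends on how near background is handled, and with normexp background correction and an offset of 50 it was 2.39 and 2.08, still past the test.

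KLK11, also called hippostasin, was above background before treatment in the control clones but not in the knockdown clones. Its probe (hg19 chr19:51525626-51525685) read 4.75 and 4.98 in untreated CONT1 and CONT2, and 2.28 and 2.55 in untreated TET1-KD1 and TET1-KD2. After 5-aza-dC it read 7.33 and 7.69 in the control and 6.21 and 7.46 in the knockdown clones. Every treated array was higher than every untreated one, and the untreated knockdown arrays were the lowest. The 10 spots of the probe gave the same order within arrays, with 7 and 10 of 10 spots above background in the untreated control clones, 0 of 10 in both untreated knockdown clones and 10 of 10 on each treated array. The SD between spots was 0.05 to 0.35 in log2.

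The KLK11 response was 2.64 (SE 0.40) in the control and 4.43 (SE 0.40) in the knockdown clones, with limma adjusted p-values of 0.00377 and 0.00113. In the control clones, where both states were measured, this was 6.25-fold. In the knockdown clones the untreated level was below background, so that the rise was at least 5.41-fold. With normexp and an offset of 50 the responses were 1.42 and 1.47. Without both arrays of CONT1 or of CONT2, the control response was 2.71 or 2.58 but no longer passed the limma test (adjusted p 0.0730 and 0.0834).

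KLK5, a trypsin-like protease that activates other kallikreins in skin, rose by less and with more spread. Its probe (hg19 chr19:51446866-51446925) read 4.74 and 5.01 in untreated CONT1 and CONT2, and 6.79 and 7.30 after treatment. TET1-KD1 and TET1-KD2 read 3.54 and 5.33 before and 6.77 and 7.35 after. All 4 treated arrays were above all 4 untreated ones, and the value of TET1-KD1 before treatment was the only 1 of 8 not above background. The response was 2.17 (SE 0.57) in the control and 2.62 (SE 0.57) in the knockdown clones, with limma adjusted p-values of 0.0252 and 0.0351. In the control clones, where both states were measured, this was 4.52-fold. Of the knockdown clones only TET1-KD2 had both states above background, and its difference was 2.02 in log2.

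The KLK5 call was close to the threshold. In the control clones it was lost without any 1 of the 4 control arrays (adjusted p 0.0626 to 0.112). In the knockdown clones, in a limma fit of the 6 arrays of the first slide alone, the difference was the same 2.62 with an adjusted p of 0.0649. There it was also lost without any 1 of the 4 control arrays or either treated knockdown array (adjusted p 0.0649 to 0.170). KLK11 and KLK12 passed in the fit of the first slide alone, with adjusted p-values of 0.00412 and 0.000491.

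**Figure D2:**
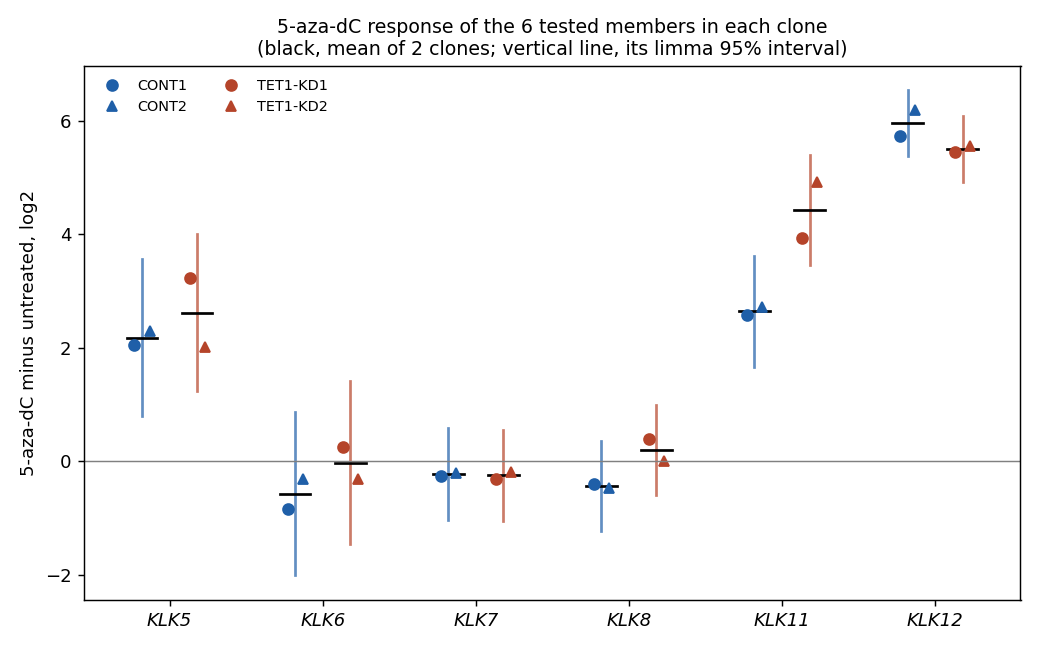
Treated minus untreated log2 signal (vertical axis) of the 6 tested members (horizontal axis) in each of the 4 clones, with the mean of each kind of clone in black and its limma 95% interval as a line. KLK5, KLK11 and KLK12 were above 0 in all 4 clones, with responses from 2.02 to 6.19, while KLK6, KLK7 and KLK8 lay between -0.84 and 0.39.

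The members that were bright before treatment, KLK6, KLK7 and KLK8, did not pass the test in either kind of clone. KLK8, or neuropsin, known for its part in synaptic plasticity and in skin, read 13.72 and 13.89 in untreated CONT1 and CONT2 and 13.31 and 13.42 after treatment. In TET1-KD1 and TET1-KD2 it read 12.74 and 13.64 before and 13.14 and 13.64 after. The treated values fell inside the range of the untreated ones over all 4 clones. The mean difference was -0.44 in the control clones (95% interval -1.22 to 0.35, limma adjusted p 0.316) and 0.19 in the knockdown clones (-0.59 to 0.98, adjusted p 0.755).

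KLK7, the chymotrypsin-like stratum corneum protease, read 9.90 and 10.20 in the untreated and 9.64 and 9.99 in the treated control clones. TET1-KD1 and TET1-KD2 read 9.00 and 9.63 before and 8.68 and 9.44 after. It was lower after treatment in each of the 4 clones, with differences of -0.19 to -0.32 in log2, smaller in each clone than the gap between that clone and the other of its kind. The differences were -0.23 (95% interval -1.04 to 0.58, limma adjusted p 0.607) and -0.25 (-1.06 to 0.56, adjusted p 0.681).

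KLK6, also called neurosin, was read by 2 probes, a brighter one (hg19 chr19:51461888-51461947) and a second (chr19:51466725-51466784). The brighter one read 12.38 and 12.24 in untreated CONT1 and CONT2 and 11.53 and 11.93 after treatment, and 10.41 and 12.09 before and 10.67 and 11.77 after treatment in TET1-KD1 and TET1-KD2. The second read 8.99 and 8.99 before and 7.77 and 7.89 after treatment in the control clones, and 7.04 and 8.76 before and 7.43 and 8.44 after in the knockdown clones. Both probes were lower after treatment in both control clones. In the knockdown clones both were higher after treatment in TET1-KD1 and lower in TET1-KD2. The control response was -0.58 (limma adjusted p 0.467) on the brighter and -1.16 (adjusted p 0.154) on the second probe. With the trend on probe GC content removed and clone as a block, KLK6 and KLK7 passed as lower in the control clones, at -1.02 and -0.69 (adjusted p 0.0259 and 0.0147).

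The remaining 4 members gave no tested value. KLK14, which takes part in skin desquamation, was above background on 0 of 8 arrays and read 2.08 to 3.01. KLK9 was above background on 1 array, that of untreated TET1-KD1, and read 2.60 to 4.59. KLK10, a gene reported as silenced in several carcinomas, was above background on both arrays of CONT1, at 4.94 before and 6.72 after 5-aza-dC. On the other 6 arrays KLK10 read 2.34 to 4.11. It was higher after treatment in CONT1 and TET1-KD2 and lower in CONT2 and TET1-KD1, and only CONT1 had it above background. The brightest of the 3 KLK13 probes was above background on 3 arrays, untreated CONT2 at 4.44, treated CONT1 at 4.98 and treated TET1-KD2 at 4.70, and the other 2 probes on none.

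Without treatment, 0 of 6 tested members passed the limma test between knockdown and control clones, where 0.00973% of gene names were higher and 0.00973% lower. At an unadjusted p below 0.05 there was 1, KLK11, and the methods' t-test gave 0 after Benjamini-Hochberg adjustment. The KLK11 difference, knockdown minus control, was -2.46 in log2 (SE 0.40, unadjusted limma p 0.000758, adjusted p 0.354), which as a bound was at least 1.38-fold lower. For KLK6, KLK7, KLK8 and KLK11 both knockdown clones lay below both control clones, and for KLK5 and KLK12 the kinds of clone overlapped. How many of all tested gene names were ordered this way was not counted, so this order is not read as a result about the members. For KLK5, KLK6, KLK7 and KLK8 the lowest of the 4 untreated arrays was that of TET1-KD1, the clone with the lower TET1 signal, and TET1-KD2 lay closer to the control clones. For KLK6 the brighter probe read 10.41 in TET1-KD1 and 12.09 in TET1-KD2, a gap wider than the mean difference of -1.06 between the kinds of clone. Differences between single clones, and any link of these levels to TET1, were not tested.

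After treatment, 0 of 6 tested members passed between knockdown and control clones, where 11.8% of gene names were higher and 7.68% lower. The count was also 0 at an unadjusted p below 0.05 and by the methods' t-test. The differences, knockdown minus control, ran from -0.75 for KLK7 (95% interval -1.56 to 0.06, limma adjusted p 0.163) to 0.02 for KLK8 (-0.77 to 0.81, adjusted p 0.971). KLK12 differed by -0.34 (-0.92 to 0.24, adjusted p 0.353) and KLK11 by -0.67 (-1.65 to 0.30, adjusted p 0.280). Without the treated array of TET1-KD2, KLK11 passed as lower in the knockdown clones, at -1.30 in log2 (adjusted p 0.0376).

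The response to 5-aza-dC did not pass a test of difference between the kinds of clone for any of the 6 tested members, where 4.08% of gene names had a higher and 1.78% a lower response in the knockdown clones. At an unadjusted p below 0.05 there was 1 member, and the methods' t-test gave 0. That member was KLK11, whose fitted response was 1.78 larger in the knockdown clones (SE 0.57, 95% interval 0.40 to 3.16, limma adjusted p 0.126). This value rests on the untreated knockdown level, which was below background, and with normexp and an offset of 50 the difference was 0.056 (adjusted p 0.948). Without the treated array of TET1-KD1 the KLK11 difference passed, at 2.41 (adjusted p 0.0465). For KLK12 the difference was -0.47 (-1.29 to 0.35, adjusted p 0.443) and for KLK5 it was 0.44 (-1.51 to 2.40, adjusted p 0.775), intervals that allow sizeable differences in either direction.

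**Figure D3:**
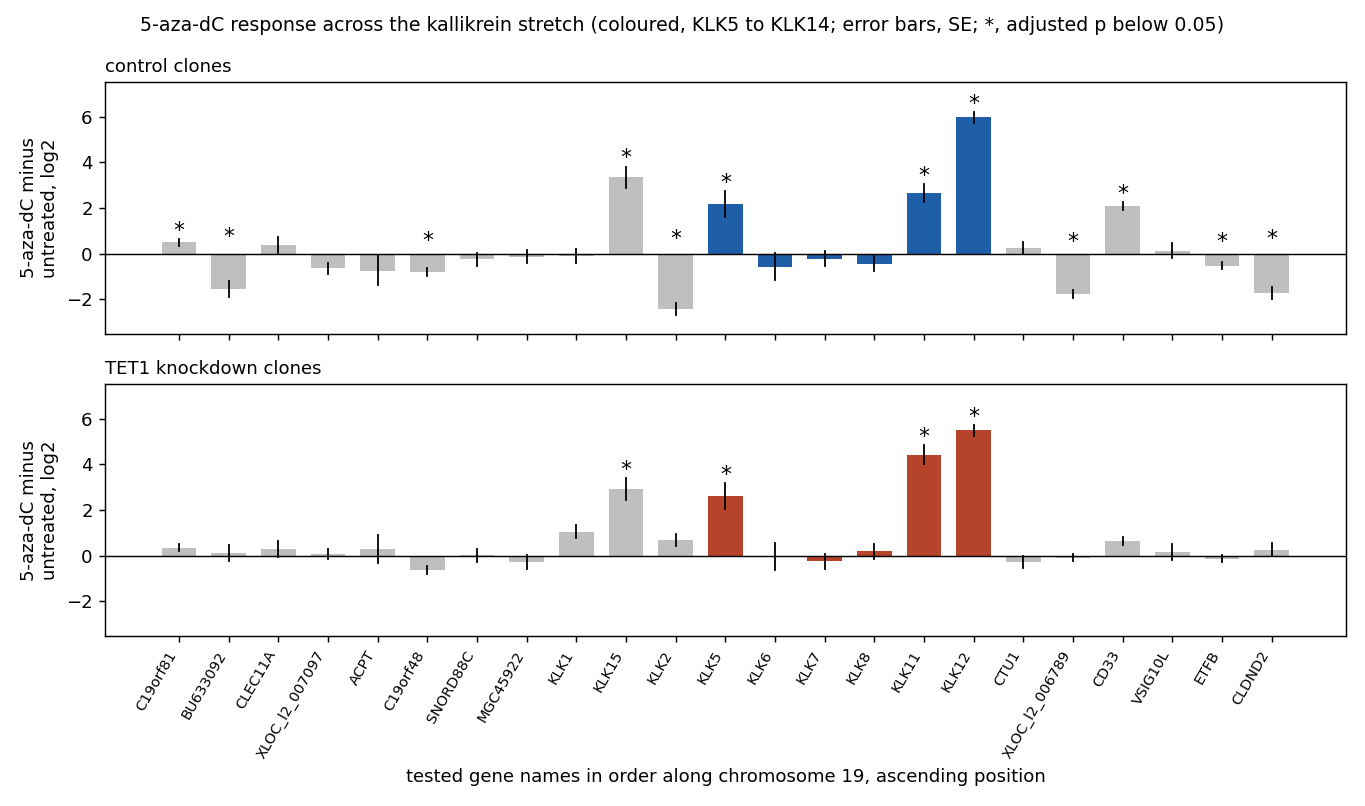
Treated minus untreated log2 signal (vertical axis, bars from 0, error bars SE) of the 6 tested members and 17 other tested gene names in the stretch around the members, in order along chromosome 19 (horizontal axis), in control clones above and knockdown clones below. Coloured bars are members and stars mark an adjusted p below 0.05. In the knockdown clones the 4 starred genes were KLK15, KLK5, KLK11 and KLK12.

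The members that rose were not a single unbroken block. Along the chromosome KLK5 was followed by KLK6, KLK7 and KLK8, which did not pass, then by KLK9 and KLK10, which were not tested, and then by KLK11 and KLK12. In the stretch reaching 300 kb beyond the outermost member probes (hg19 chr19:51146866-51881312) the array held 32 other gene names, of which 17 were tested. In the control clones 3 of these 17 rose and 6 fell, where 20.4% of all tested gene names rose and 22.0% fell. In the knockdown clones 1 rose and 0 fell, where 9.32% rose and 2.89% fell. That 1 was KLK15, a further kallikrein of the cluster, which read 2.22 and 2.07 in untreated CONT1 and CONT2 and 5.55 and 5.41 after treatment, and 2.11 and 2.49 before and 4.43 and 5.98 after in the knockdown clones. As a bound it was at least 2.25-fold and 1.75-fold higher (limma adjusted p 0.00292 and 0.0124). KLK15 was above background on treated arrays only, so its place among the 17 depended on the same rise that is counted. CD33, a sialic acid-binding receptor encoded on the far side of the cluster, rose by 2.08 in the control clones (adjusted p 0.000444), while its response of 0.63 in the knockdown clones did not pass (adjusted p 0.0708). Before treatment CD33 was already higher in the knockdown clones, with means of 9.84 against 7.13 (log2 difference 2.71, adjusted p 0.0268), and it was higher there after treatment too (1.26, adjusted p 0.00699). The untreated CD33 call depends on the fit. In that comparison 0 of all probes passed in a fit of the 6 arrays of the first slide or of the 4 arrays compared. The methods' t-test also gave 0. The difference in the CD33 response, knockdown minus control, was -1.45 (adjusted p 0.0303), and cannot be told apart from slide.

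Of the 6 other kallikrein names of the cluster, KLK1 to KLK4, KLK15 and the pseudogene KLKP1, 3 were tested. KLK1, tissue kallikrein, was above background on all 8 arrays at 7.43 to 9.13 and did not pass in either response. The dim probe of KLK2, a prostate kallikrein that activates KLK3, read 4.93 and 4.78 in the untreated and 2.42 and 2.48 in the treated control clones, at least 1.28-fold lower (limma adjusted p 0.00107). With TET1 knocked down KLK2 read 4.69 and 3.96 before and 4.88 and 5.15 after treatment. Its response differed between the kinds of clone (limma adjusted p 0.0139). Both the fall and this difference rest on the treated control arrays, which lay on the second slide with KLK2 below background. They cannot be told apart from slide. KLK3, KLK4 and KLKP1 were not tested.

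Of 11 listed inhibitors 7 were tested, and 0 rose and 3 fell in the control clones, while 0 passed in the knockdown clones. Over all tested gene names 20.4% rose and 22.0% fell in the control clones. SERPINA3 (antichymotrypsin), SERPINC1 (antithrombin) and SERPINF2 (antiplasmin) fell in the control clones with limma adjusted p-values of 0.00877, 0.00934 and 0.00893. As bounds they fell by at least 3.02-fold, 1.40-fold and 1.26-fold. All 3 were below background on the treated control arrays, which lay on the second slide, so the falls cannot be told apart from slide. SPINK5, SPINK6 and SPINK9, the Kazal-type inhibitors of skin kallikreins, were above background on 0 arrays. Of 6 proteases known to activate kallikreins 2 were tested, ST14 (matriptase) and PLAU (urokinase), and both fell in the control clones. Their log2 differences were -1.13 and -1.67 (adjusted p 0.0130 and 0.0107), and neither passed in the knockdown clones.

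Of 11 listed substrates and receptors 6 were tested, and CAMP rose in both kinds of clone. CAMP encodes the cathelicidin precursor that KLK5 and KLK7 process in skin. It read 2.26 and 2.10 in untreated CONT1 and CONT2 and 8.21 and 8.33 after treatment, and 2.15 and 2.53 before and 6.86 and 9.28 after in the knockdown clones. As a bound it was at least 15.6-fold and 12.7-fold higher (limma adjusted p 0.00142 and 0.00393). CAMP entered the test only through its treated arrays. F2RL1, which encodes the protease-activated receptor PAR2, was bright on all 8 arrays at 12.46 to 14.45 and did not pass in either response. F2RL3, which encodes PAR4, fell by 0.94 in log2 in the control clones (adjusted p 0.0402) and did not pass in the knockdown clones. For F2R, which encodes PAR1, the brighter probe did not pass in either response, while a second probe rose in both, by 2.52 and 1.76. DSG1, DSC1 and FLG, skin proteins cut by kallikreins, were above background on 0 arrays.

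Many kallikrein-related peptidases are known from squamous epithelium, whose markers were therefore listed beside them. Of 14 squamous markers 9 were tested. In the control clones 5 rose and 1 fell, where 20.4% of all tested gene names rose and 22.0% fell. In the knockdown clones 2 rose and 0 fell, where 9.32% rose and 2.89% fell. KRT5, KRT14 and KRT6A entered the test only through treated arrays, so their place among the 9 depended on the same rise that is counted. KRT14, a basal keratin, rose by at least 4.05-fold and 6.21-fold (limma adjusted p 0.00674 and 0.00472), and SBSN, which encodes suprabasin, rose by 3.09 and 3.69 in log2 (adjusted p 0.0249 and 0.0358). KRT6A and KRT5 rose in the control clones by at least 24.1-fold and 4.82-fold. Their fitted changes were 5.50 and 4.18 in log2 there and 4.37 and 3.68 in the knockdown clones, where they did not pass (adjusted p 0.0617 and 0.0525). CALML5 rose by 1.28 in the control clones, and its change of 1.23 in the knockdown clones did not pass (adjusted p 0.113). SPRR3 fell in the control clones by at least 1.72-fold, to below background on the treated control arrays. Its response differed between the kinds of clone (limma adjusted p 0.0088). Both the fall and this difference rest on arrays of the second slide and cannot be told apart from slide. TP63, IVL, LOR and KRT1, defining genes of squamous cells and of their terminal differentiation, were above background on 0 arrays. The log2 of the summed signal of the 14 markers was 14.62 to 14.64 in the untreated and 14.31 to 14.37 in the treated control clones, and 14.60 to 14.93 and 14.83 to 14.96 in the knockdown clones. Most of that sum was KRT10, which averaged 14.54 before and 14.10 after treatment in the control clones and did not pass, so the sum does not follow the dimmer markers that rose.

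Markers of cells from outside the epithelium were also read. CD14, a monocyte marker, rose by 2.76 in log2 in the control and 1.61 in the knockdown clones (limma adjusted p 0.000537 and 0.00960). PTPRC, a marker of leukocytes, rose by 1.56 in the control clones (adjusted p 0.0142), and its response of 0.09 in the knockdown clones did not pass (adjusted p 0.904). A second probe of PTPRC fell in both, with log2 differences of -0.74 and -0.84. Of 6 fibroblast markers 3 were tested, and COL1A1 and DCN rose in the control clones, while 0 rose under knockdown. Over all tested gene names 20.4% rose in the control clones and 9.32% under knockdown. DCN entered the test only through its treated arrays. COL1A2, COL3A1 and LUM were above background on 0 arrays, and the summed signal went from between 8.43 and 8.55 to between 9.40 and 9.83 in the control and from between 8.45 and 8.83 to between 9.34 and 9.63 in the knockdown clones. The part of any such cells in the kallikrein signals was not tested.

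KLK12 had the widest range of the tested members, and 15177 gene names were ranked by how closely their centred log2 signals followed it over the 8 arrays. The 5 closest were GDPD4, BNC1, ACOT4, TMEM30B and SOX17, with root mean square differences of 0.09, 0.13, 0.21, 0.22 and 0.23 in log2. GDPD4, for example, read 1.97 to 2.35 on the 4 untreated arrays and 8.05 at its highest, in treated CONT2. All 5 were above background on the 4 treated arrays only, so that their likeness to KLK12 came from a shared floor and a similar treated level. In all, 356 gene names lay within 1 log2 of the KLK12 pattern.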

How the data were processed

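Total RNA of 8 samples was hybridised to 1-colour Agilent 60-mer arrays. The deposited files hold intensity values per spot as Agilent Feature Extraction 10.7.3.1 wrote them per the file headers (hg19 positions), and the authors' value table held the same processed intensity rounded to within 0.5% on each array. The sources used here do not state the authors' normalization. The 58717 non-control spots of each array were read, flagged spots were left out, the processed signal was divided by each array's 75th percentile, floored at 1, turned into log2 and averaged over the spots of a probe. The depth of an array is its number of spots and replicates, and 2 clones per condition limit the precision. limma 3.58.1 in R 4.3.3 fitted 4 condition means over 27287 probes, with Benjamini-Hochberg adjustment over all of them and a call at an adjusted p below 0.05. Each gene was represented by its brightest tested probe. Above background means that at least 0.5 of a probe's spots were well above background. The fit was tested on simulated data. The named genes were all members, TET1, and by fixed rules the called genes of the lists, of the flanking stretch and the 5 names closest to KLK12. Members and gene lists were chosen with earlier results of these data known. Clones pair the untreated and treated samples by label. Deviations of the same clone correlated at 0.20 (control) and 0.48 (knockdown) over all tested probes. Alternatives covered background correction, scaling, filters, the clone as a replicate block, probe GC, samples fitted, the methods' t-test and left-out arrays, and leaving out whole clones was added after seeing the data. The summary over the leukocyte marker list is not reported here.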

Additional observations from a re-analysis of the deposited data

How the results depend on the processing

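The clone as a replicate block changed no count of members, 3 higher and 0 lower in each response and 0 in the other comparisons, and adjusted p-values under the block for KLK12 were 0.000651 and 0.00101. KLK12 passed in 26 of 26 alternatives in the control and 26 of 27 in the knockdown clones, KLK11 in 24 of 26 and 26 of 27, and KLK5 in 19 of 26 and 14 of 27. The 3 members higher became 0 in both responses where probes had to be above background on all 8 arrays, because KLK5, KLK11 and KLK12 then leave the test. They became 0 in the knockdown clones by the methods' t-test, which called 0 probes there. Leaving out CONT1 or CONT2 left 1 member higher in the control clones and single arrays left 2 to 3. Leaving out TET1-KD2 or its treated array gave 1 lower in the treated comparison, and leaving out the treated array of TET1-KD1 gave 1 with a larger response in the knockdown clones, against 0 otherwise. Removing the probe GC trend with the replicate block gave 2 members lower in the control clones. The cause was not tested in these cases.

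Signs that differed from the reported ones belonged to differences that did not pass either way. In the control response KLK7 was 0.018 on the spike-in line. In the knockdown response KLK6 was 0.0094 with normexp, 0.065 with quantile normalization, 0.0043 on the spike-in line and 0.032 on its dimmer probe, and KLK8 was -0.11 without the GC trend, with or without the replicate block. In the untreated comparison KLK12 was -0.036 with normexp. In the treated comparison KLK5 was -0.11 with normexp, -0.44 without the GC trend and -0.28 on the spike-in line, KLK6 was 0.10 on its dimmer probe, and KLK8 was -0.25 without the GC trend. In the difference of responses KLK5 was -0.16 and KLK7 was 0.22 without the GC trend, with or without the replicate block. With arrays or clones left out, the knockdown response ran from -0.87 to 0.81 for KLK6, -0.63 to 0.13 for KLK7 and -0.26 to 0.64 for KLK8. The untreated comparison ran from -1.33 to 0.46 for KLK5 and -0.066 to 0.32 for KLK12. The treated comparison ran from -0.28 to 0.30 for KLK5, -1.06 to 0.041 for KLK6 and -0.23 to 0.27 for KLK8. The difference of responses ran from -0.45 to 1.34 for KLK5, -0.29 to 1.38 for KLK6 and -0.40 to 0.36 for KLK7. Leaving out both arrays of a clone gave, for the knockdown response, 0.25 for KLK6 without TET1-KD2 and -0.0045 for KLK8 without TET1-KD1. It gave 0.46 for KLK5 without TET1-KD1 and -0.066 for KLK12 without TET1-KD2 in the untreated comparison. In the treated comparison it gave -0.25 for KLK5 and -0.032 for KLK8 without CONT1, -0.28 and -0.23 without TET1-KD2, and 0.041 for KLK6 without TET1-KD1. For the difference of responses it gave -0.16 for KLK5 and 0.044 for KLK7 without TET1-KD1, and 0.0020 for KLK7 without CONT2.

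Over all probes the share of calls that were higher in the control response was 46.4%, against 67.5% on the spike-in line and 35.7% without the GC trend, and in the knockdown response 76.2% against 37.9% without the GC trend and 95.6% in a fit of its 4 arrays. On the spike-in line the median of the treated control arrays was 8.50 and 8.57, against 8.19 and 8.14 as reported. Calls over all probes in the control response ran from 1771 higher and 1380 lower without CONT2 to 7028 higher on the spike-in line and 9223 lower without the GC trend, with the replicate block. In the knockdown response there were 2436 higher and 762 lower, against 1389 and 68 without TET1-KD2 and 2773 and 5871 without the GC trend, with the replicate block. In the treated comparison there were 3270 and 1859, against 408 and 165 without CONT2. In the difference of responses there were 1091 and 430, against 0 without any 1 clone. On the spike-in line the share higher in these last comparisons was 44.6% and 44.4%, against 63.8% and 71.7%. Signals near background limit KLK9, KLK10, KLK13 and KLK14, which were not tested.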
